A study of Bos taurus with 39 samples.

Results

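The libraries described here compare bovine oocytes that matured without their cumulus cells with oocytes that matured inside them, during the first hours of in vitro maturation. They were chosen by their labels and number 12 of the 39 miRNA libraries of the series. There were 3 libraries of control oocytes and 3 of denuded oocytes after 1 h, and 3 of each after 6 h. Every library was made from 30 oocytes. All oocytes came from abattoir ovaries and were matured in a serum-free medium. Control oocytes spent the 1 h or 6 h inside the cumulus-oocyte complex (COC) and were stripped of cumulus cells only afterwards. Denuded oocytes (DO) were stripped by vortexing in hyaluronidase before maturation began and were then matured alone. The zona pellucida of the DO was removed with pronase, so that the absence of cumulus cells and the handling of the oocytes cannot be told apart. The DO also serve only as a model of lost contact, since a stripped oocyte loses both the cells and whatever the cells release close to it. The question was whether the miRNA content of the oocyte had changed 1 h or 6 h after it lost its companion cells.

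A miRNA is a short RNA that guides a protein complex to messenger RNAs, mostly through its seed, bases 2 to 8 counted from the 5′ end, and lowers the stability or translation of these messengers. Cumulus cells reach the oocyte through thin extensions that cross the zona pellucida, called transzonal projections, and small molecules and RNA can pass through them before they retract during maturation. The fully grown oocyte transcribes little, and much of its RNA is stored from the growth phase. In bulk libraries such as these, fewer copies per oocyte and fewer oocytes or attached cells contributing RNA cannot be told apart.

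Many of the miRNAs described below were predicted by the authors from their own reads and are here called predicted miR-485 and so on. The known miR-155 and miR-132 are also described at length. Predicted miRNAs were also most of those tested, 324 of 439 at 1 h and 289 of 388 at 6 h. Sequences were available here only for 18 predicted miRNAs, those printed in the study's supplement. Of these, the following are shown because their level was lower in DO in at least 5 of the 6 matched library pairs. They are not the full set with that direction, since 11 of 473 miRNAs (2.33%) were lower in all 6 pairs. Predicted miR-484 is shown beside miR-485 because they differ by 1 base. Capitals mark the seed.
predicted miR-485: gGGGAUGUagcucagugg
predicted miR-484: gGGGGUGUagcucagugg
predicted miR-824: gUCAGGAUggccgaguggucuaagg
predicted miR-895: gCGCCCCCggggccgcgg
From miR-484 to miR-485 the change is G5A, counted from 1 at the 5′ end, and the other bases of both 18-base sequences are the same. That base lies within the seed, so that the seeds differ. Predicted miR-824 has 25 bases. Predicted miR-895 has 18 bases and contains only G and C. The letters of predicted miR-484 and miR-485 resemble the start of alanine transfer RNAs and those of predicted miR-824 the start of leucine transfer RNAs, which was not tested here.

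The 12 libraries held between 20180 and 175429 miRNA counts (median 60657). A count of 3 corresponded to 17.1 to 148.7 CPM (counts relative to the library total), and this floor covers counting error only. Of 1995 listed miRNAs, 1316 were counted in some library and 586 in all 12. One library stood apart. Control replicate 1 at 6 h had the lowest total (20180), the fewest miRNAs detected (746, against 862 to 1117 in the others) and the largest share of known miRNAs (50.6%, against 39.9% to 43.6%). At 6 h the total was also higher in DO than in the control of the same number in 3 of 3 pairs, and the share of known miRNAs was lower in 3 of 3 pairs. An unpaired exact permutation test of 3 against 3 libraries gave a two-sided p = 0.1 for each, the smallest that test allows. Over the 6 pairs of both times an exact sign-flip test gave p = 0.5 for the total and p = 0.094 for the share. Adjusted over 4 measures these were 0.75 and 0.375. Replicates of a group differed by more than sampling noise, the chi-square divided by its degrees of freedom running from 5.18 to 20.2. Nothing in the labels ties a replicate to separate animals beyond its number, and p-values measure the spread between these libraries.

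After 1 h without cumulus cells no miRNA passed the threshold of an adjusted p under 0.05 and a 2-fold difference. The edgeR quasi-likelihood test called 0 of 439 miRNAs (0%), and 15 of them (3.42%) had an unadjusted p under 0.05, with 7 higher (1.59%) and 8 lower (1.82%) in DO. DESeq2 called 0, and 4 miRNAs had an unadjusted p under 0.05 there. The smallest adjusted p of the edgeR test was 0.969. In 24 miRNAs (5.47%) the control and DO libraries did not overlap, 10 of them higher (2.28%) and 14 lower (3.19%) in DO.

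Among the known miRNAs, miR-199a-3p and miR-30b-5p had an unadjusted p under 0.05 at 1 h. miR-199a-3p is processed from a longer transcript that it shares with miR-214 and is typical of stromal cells. It stood at 251, 811 and 128 CPM in control replicates 1, 2 and 3 and at 67.8, 375 and 97.6 CPM in DO. Each DO library was lower than the control of the same number, although the ranges overlapped. The log2 fold change of DO over control, where 1 unit is a 2-fold difference, was -1.13 ± 0.39 (SE, n = 3 pairs; edgeR, unadjusted p = 0.0303, adjusted p = 0.969). miR-30b-5p, one of a family with a common seed that is expressed in many tissues, stood at 1119, 629 and 862 CPM in control and 723, 438 and 561 CPM in DO, with a log2 fold change of -0.58 ± 0.22. It was lower in 3 of 3 pairs, and the ranges overlapped.

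The predicted miRNAs with the smallest p at 1 h lay on both sides. Predicted miR-446 had 4589.8, 3857 and 3576 CPM in control and 5955, 5318 and 5587 CPM in DO. Every DO library lay above every control, for a log2 fold change of 0.51 ± 0.18. Predicted miR-78 had 434, 596 and 511 CPM in control and 847, 876 and 671 CPM in DO (0.66 ± 0.25), again with no overlap. Predicted miR-515 had the smallest p at this time (edgeR, unadjusted p = 0.0199), with 159.8, 662 and 319 CPM in control and 519.8, 3472 and 378 CPM in DO (1.53 ± 0.47). It was higher in 3 of 3 pairs and DO replicate 2 was far above the other libraries. Predicted miR-746 was on the other side, with 662, 1026 and 431 CPM in control and 316, 626 and 293 CPM in DO (-0.77 ± 0.24). It too was lower in 3 of 3 pairs with overlapping ranges. Predicted miR-301 (0.70 ± 0.21) and predicted miR-712 (-0.66 ± 0.25) completed the names chosen at this time.

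After 6 h the test again called 0 miRNAs, now of 388 (0%), and 15 (3.87%) had an unadjusted p under 0.05, with 5 higher (1.29%) and 10 lower (2.58%) in DO. DESeq2 called 2, miR-155 and predicted miR-85, both lower in DO, and 8 miRNAs had an unadjusted p under 0.05 there. The libraries did not overlap in 47 miRNAs (12.1%), of which 25 were higher (6.44%) and 22 lower (5.67%) in DO.

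miR-155, best known from activated immune cells and also found in follicular cells, had the smallest p at 6 h. Control libraries held 4757, 1920.4 and 2462 CPM in replicates 1, 2 and 3 at this time, and DO 1036, 584 and 462 CPM. Every DO library was below every control library. This gave a log2 fold change of -2.13 ± 0.31 (95% interval -2.90 to -1.36; edgeR, unadjusted p = 0.000525, adjusted p = 0.204). At 1 h the same miRNA stood at 297, 480.1 and 159.6 CPM in control and 90.4, 594 and 207 CPM in DO, with overlapping ranges and a log2 fold change of -0.28 ± 0.49. The control libraries of 6 h thus all lay above those of 1 h, a comparison for which no test was made. The difference between the effects at 6 h and at 1 h was -1.81 ± 0.59 (unadjusted p = 0.0135 and adjusted p = 0.759 in the edgeR interaction test over 12 libraries). Over 17 other settings at 6 h the log2 fold change of miR-155 ran from -2.28 to -1.66 and its adjusted p from 0.00352 to 0.647, and 4 settings called it, among them leaving out replicate 2. It was -2.07 without replicate 1 and -1.66 when the control library that stood apart was left out and no pairing was used. The blood and immune list, all 9 members summed, stood at 99.1 to 584 CPM in the controls at 6 h and at 451 to 3328 CPM in DO. In the 12 libraries miR-142-3p had 0 counts, miR-451 0 to 3, miR-150 2 to 73, miR-142-5p 0 to 10 and miR-223 0 to 155, the highest miR-223 and miR-142-5p counts being in DO replicate 2 at 6 h. The part of such cells in the miR-155 result was not tested.

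miR-132, whose transcription responds to cyclic AMP and which luteinizing hormone raises in granulosa cells, had few counts and a level that was lower in DO in 6 of 6 pairs. At 1 h it stood at 91.3, 99.3 and 144 CPM in control and at 33.9, 0 and 61.0 CPM in DO. At 6 h it stood at 371, 274 and 194 CPM in control and at 104, 0 and 40.7 CPM in DO. At each time every DO library was below every control library. The 1 h counts were 8, 6 and 9 in control and 3, 0 and 5 in DO. DO replicate 2 had 0 counts at both times, which allows up to 3 counts, or 91.8 CPM at 1 h and 52.5 CPM at 6 h. The bound at 1 h is above the lowest control, so a separation at 1 h is not shown at this depth. miR-132 was too low to be tested at 1 h. At 6 h its log2 fold change was -2.56 ± 0.69 (edgeR, unadjusted p = 0.0104, adjusted p = 0.821). Over both times it was -2.16 ± 0.52 (edgeR, unadjusted p = 0.00234, adjusted p = 0.417). A direction shared by all 6 pairs was found for 17 of 473 miRNAs (3.59%). The call over both times appeared only when no low-count filter was used (adjusted p = 0.0416).

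**Figure D1:**
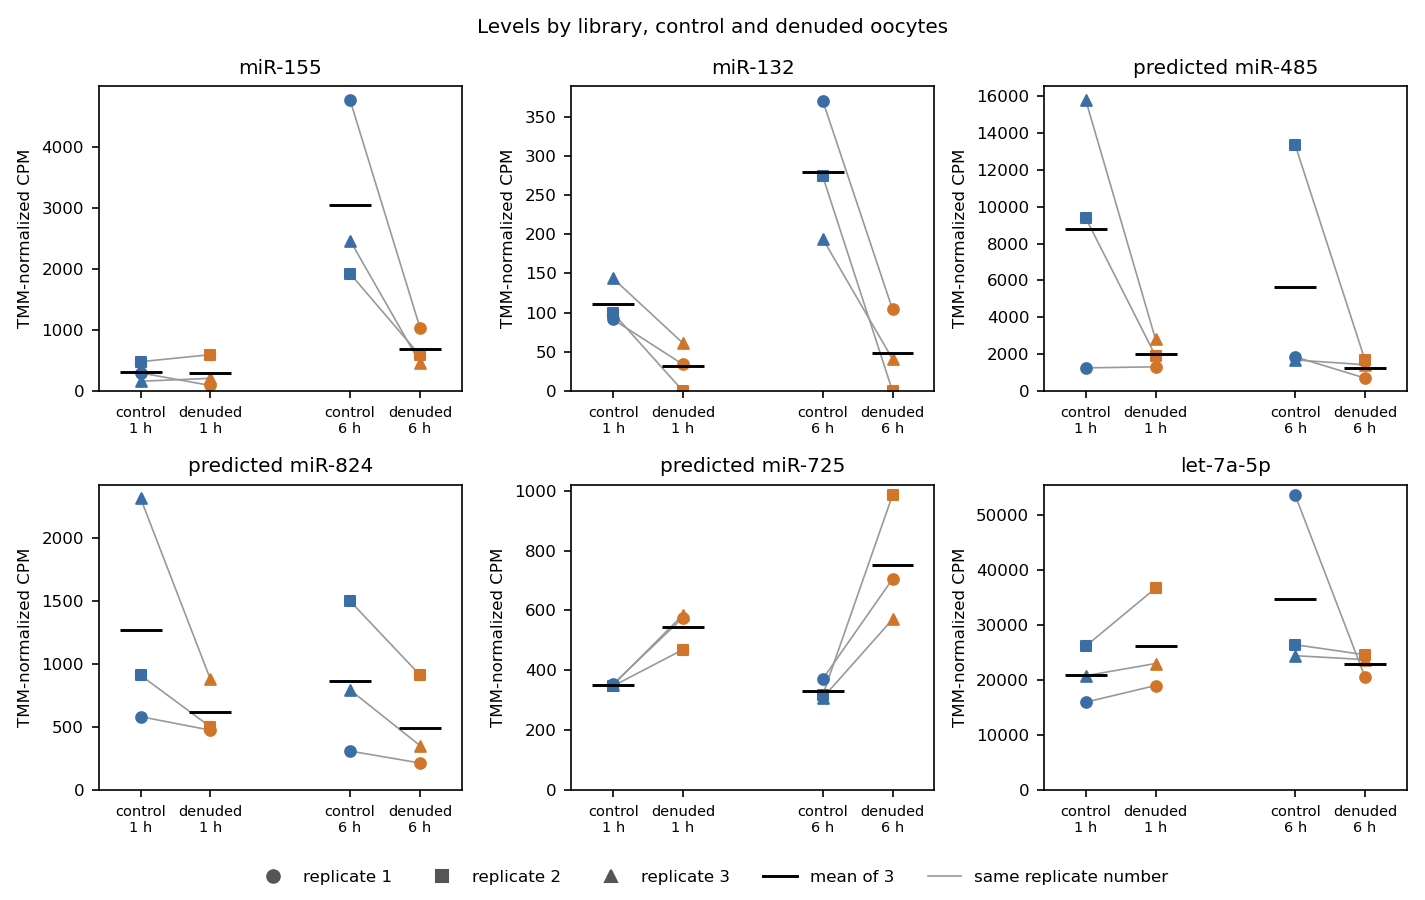
Levels of miR-155, miR-132, predicted miR-485, predicted miR-824, predicted miR-725 and let-7a-5p in the 12 libraries, in TMM-normalized CPM (vertical axis) by group and time (horizontal axis). Each point is a library, its shape the replicate number, the black bar the mean of 3 and the grey lines join libraries of the same number. At 6 h the 3 DO libraries of miR-155 sit at 462 to 1036 CPM, below the 3 controls at 1920.4 to 4757 CPM.

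Other miRNAs with a p among the smallest at 6 h were also mostly lower in DO. Predicted miR-85 had 2409.6, 2553 and 891 CPM in control and 294, 894 and 272 CPM in DO. Each DO library was below the control of its number, but the ranges overlapped on this scale, with the highest DO library at 894 CPM and the lowest control at 891 CPM. Its log2 fold change was -2.09 ± 0.43 (edgeR, unadjusted p = 0.00298, adjusted p = 0.578), against -0.12 ± 0.42 at 1 h. miR-125a, which lies in a cluster with let-7e, had 1792, 1118 and 1619.9 CPM in control and 1159, 675 and 638 CPM in DO (-0.92 ± 0.32). It was lower in 3 of 3 pairs, and the ranges overlapped on this scale, the highest DO library being above the lowest control. Predicted miR-675 was lower in 3 of 3 pairs at 6 h (-1.65 ± 0.45). On the other side, predicted miR-405 had 432, 992 and 502 CPM in control and 1189, 1660.4 and 1018 CPM in DO, with no overlap (1.02 ± 0.34). Predicted miR-749, which shares all its counts with predicted miR-750, was higher by 1.18 ± 0.43. Predicted miR-244 was also higher in 3 of 3 pairs, with overlapping ranges.

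Predicted miR-725, miR-485 and miR-895, 3 in all, had an unadjusted p under 0.05 at both times and the same direction, out of 376 tested at both. Predicted miR-725 was higher in DO. It stood at 354, 348 and 351 CPM in the controls of 1 h and at 576, 469 and 586 CPM in DO. At 6 h it stood at 371, 317 and 308 CPM in control and at 705, 985 and 570.2 CPM in DO. The 371 CPM of control replicate 1 at 6 h was 6 counts. All 6 controls lay between 308 and 371 CPM and all 6 DO libraries above them. Its log2 fold change was 0.65 ± 0.25 at 1 h, 1.14 ± 0.40 at 6 h and 0.88 ± 0.23 over both times (edgeR, unadjusted p = 0.00323, adjusted p = 0.417).

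Predicted miR-485 and miR-895 were lower in DO at both times. Predicted miR-485, whose sequence is given above, was 1256, 9386 and 15789 CPM in control and 1311, 1908 and 2806 CPM in DO at 1 h. At 6 h it was 1854, 13337 and 1685 CPM in control and 699, 1660.4 and 1426 CPM in DO. The 3 highest control libraries, at 9386 to 15789 CPM, stood well above the rest, and the control of replicate 1 at 1 h was no higher than its DO. The log2 fold change was -1.61 ± 0.58 at 1 h, -1.58 ± 0.57 at 6 h and -1.59 ± 0.43 over both times (edgeR, unadjusted p = 0.00441, adjusted p = 0.417), and it was lower in 5 of 6 pairs. Without replicate 1 it was called at 1 h (-2.40, adjusted p = 0.000585), and without replicate 3 at 6 h (-2.27, adjusted p = 0.0272). Without replicate 2 its log2 fold change was smaller, -0.79 at 6 h and -0.99 over both times, and without replicate 3 it was -1.13 at 1 h. DESeq2 called it over both times. The single-base neighbour, predicted miR-484, which shares its counts with predicted miR-486 and miR-504, had a log2 fold change of 0.14 ± 0.30 at 1 h. The value at 6 h was -0.92 ± 0.41, and after TMM scaling predicted miR-484 was lower in 3 of 3 pairs like predicted miR-485. Its replicate 1 pair at 6 h held 3 of 20180 counts in control and 29 of 175429 in DO. Relative to these library totals that pair was not lower in DO. The difference between both miRNAs was not tested.

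Predicted miR-895 was 137, 546 and 192 CPM in control and 79.1, 250.2 and 109.8 CPM in DO at 1 h. At 6 h it was 309, 591 and 324 CPM in control and 73.6, 182 and 244 CPM in DO. It was lower in 6 of 6 pairs, and at 6 h the ranges did not overlap, with 5 counts in control replicate 1 there. Log2 fold changes were -0.90 ± 0.34 at 1 h, -1.29 ± 0.48 at 6 h and -1.10 ± 0.29 over both times. Predicted miR-824 had a p under 0.05 at 1 h alone but nearly the same difference at 6 h (-0.86 ± 0.30 and -0.84 ± 0.37). It was 582, 910.4 and 2315 CPM in control and 475, 500.5 and 878 CPM in DO at 1 h, and 309, 1498 and 794 CPM in control and 215, 912 and 353 CPM in DO at 6 h. Predicted miR-824 also had 5 counts in control replicate 1 at 6 h. It was lower in 6 of 6 pairs with overlapping ranges, and over both times its log2 fold change was -0.85 ± 0.21 (edgeR, unadjusted p = 0.00305, adjusted p = 0.417).

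When both times were fitted together, edgeR called 0 of 473 miRNAs (0%), and 21 (4.44%) had an unadjusted p under 0.05, with 8 higher (1.69%) and 13 lower (2.75%) in DO. DESeq2 called 1, predicted miR-485 (16 with an unadjusted p under 0.05). The direction was the same in all 6 pairs for 17 miRNAs (3.59%), 6 of them higher (1.27%) and 11 lower (2.33%) in DO. Those higher in 6 of 6 pairs included predicted miR-405 (0.80 ± 0.24), predicted miR-562 (0.69 ± 0.26) and predicted miR-780 (0.37 ± 0.13), which shares its counts with predicted miR-781. The known miRNAs lower in 6 of 6 pairs after TMM scaling included miR-143 (-0.30 ± 0.18), abundant in smooth muscle, and miR-25 (-0.30 ± 0.15), from a cluster paralogous to miR-17-92. Relative to library totals miR-143 was not lower in DO in replicate 1 at 1 h or replicate 2 at 6 h. It had 193 of 91455 counts in control and 181 of 83931 in DO in the first pair. In the second it had 64 of 51336 in control and 73 of 57094 in DO.

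Whether the effects at 1 h and at 6 h looked alike across miRNAs depended on 1 replicate number. Of 376 miRNAs tested at both times, 170 (45.2%) had a log2 fold change of the same sign, and the Pearson correlation was -0.155 (Spearman -0.173). These points are miRNAs, not replicates, and they share libraries and depth, so that the correlation is a description. It was -0.177 over the 98 known and -0.169 over the 278 predicted miRNAs. Without replicate 1 the correlation was 0.253 and the share of the same sign 63.7%, so the sign of the correlation depended on the pairs of that number. These pairs include the library with the lowest total, whose part was not tested. With all replicates and no pairing the correlation was 0.0074, so its sign depended on the pairing as well. Of the 13 with an unadjusted p under 0.05 at 1 h, 7 had the same sign at 6 h, and of the 14 at 6 h, 11 had the same sign at 1 h.

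**Figure D2:**
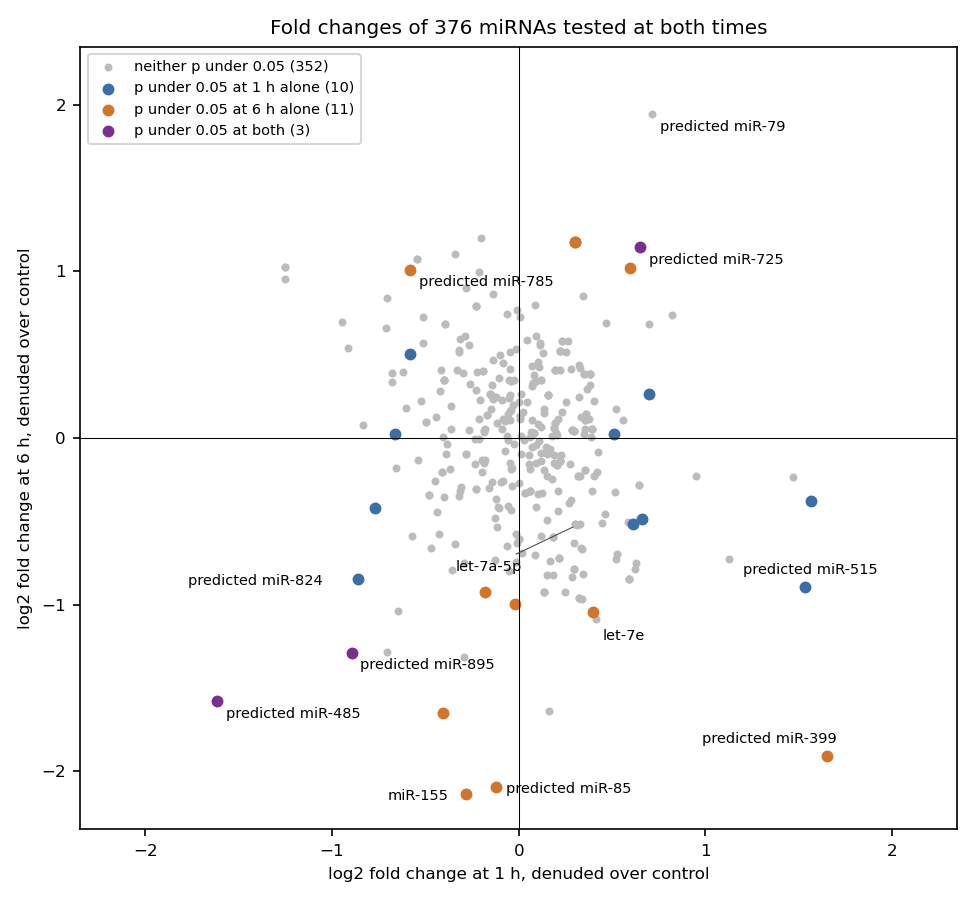
The log2 fold change of DO over control at 1 h (horizontal axis) and at 6 h (vertical axis) for the 376 miRNAs tested at both times, each point a miRNA. Of these, 352 had an unadjusted p under 0.05 at neither time, 10 at 1 h alone, 11 at 6 h alone and 3 at both, and with all replicates the cloud has no upward trend (Pearson r = -0.155).

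The interaction test, which asks whether the effect of denudation differed between the 2 times, called 0 of 473 miRNAs (0%) in edgeR and 0 in DESeq2. An unadjusted p under 0.05 was found for 21 (4.44%) in edgeR, 6 above 0 (1.27%) and 15 below 0 (3.17%), and for 10 in DESeq2. In 13 miRNAs (2.75%) all pairs went one way at 1 h and the other way at 6 h. Predicted miR-785 had the smallest p, at 822, 397 and 431 CPM in control and 542, 375 and 207 CPM in DO at 1 h, and at 309, 317 and 194 CPM in control and 649.8, 566 and 448 CPM in DO at 6 h. The 309 CPM of control replicate 1 at 6 h was 5 counts. Predicted miR-785 was lower in 3 of 3 pairs at 1 h and higher, with no overlap, at 6 h. The effects differed by 1.62 ± 0.48 (edgeR, unadjusted p = 0.00811, adjusted p = 0.759). Predicted miR-520 followed it, with -0.70 ± 0.32 at 1 h and 0.84 ± 0.45 at 6 h. Predicted miR-515 and miR-399 went the opposite way, with differences of -2.35 ± 0.72 and -3.45 ± 1.09, and in both the highest library of 1 h was DO replicate 2. Predicted miR-250 (-2.88 ± 1.03), predicted miR-877 (1.64 ± 0.70; its counts are those of predicted miR-936) and miR-199a-3p (1.72 ± 0.74) were the others among the names chosen.

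The let-7 family, conserved miRNAs that accumulate as cells differentiate and that LIN28 restrains, stood among the abundant miRNAs of these oocytes. Of its 9 members 8 were tested, and 0 were called at either time (edgeR; 0 had an unadjusted p under 0.05). At 1 h 6 of 8 had a log2 fold change above 0, with a median of 0.196 (range -0.12 to 0.42) beside 0.029 over all miRNAs tested. At 6 h 0 of 8 were above 0, with a median of -0.554 (range -1.08 to -0.18) beside 0.023 over all. let-7a-5p, the most abundant member, was 15984, 26188 and 20802 CPM in control and 19016, 36724 and 23020.3 CPM in DO at 1 h. At 6 h it was 53629, 26442 and 24445 CPM in control and 20510.3, 24614 and 23733 CPM in DO. The control of replicate 1 at 6 h was the highest of the 12 libraries. Its log2 fold change was 0.31 ± 0.14 at 1 h and -0.52 ± 0.34 at 6 h.

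The counts of the whole family, summed, had the same directions. They were 41638, 61376 and 56547 CPM of the library total in control and 50017, 88291 and 58298 CPM in DO at 1 h, and 105352, 59062 and 63757 CPM in control and 48304, 51827 and 53634 CPM in DO at 6 h. The sum was higher in 3 of 3 pairs at 1 h (mean log2 ratio 0.278, SD 0.241, n = 3) and lower in 3 of 3 pairs at 6 h (-0.521, SD 0.524, n = 3), where the groups did not overlap. Without replicate 1 the mean log2 ratio at 6 h was -0.219. When the control library that stood apart was left out and no pairing was used, the median of the 8 members at 6 h was -0.331 and 1 of 8 was above 0. Over both times the median was -0.185 with 0 of 8 above 0, but 0.063 with 5 of 8 above 0 without replicate 1. let-7e had the largest difference between the times (-1.48 ± 0.60; edgeR, unadjusted p = 0.0352, adjusted p = 0.759).

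**Figure D3:**
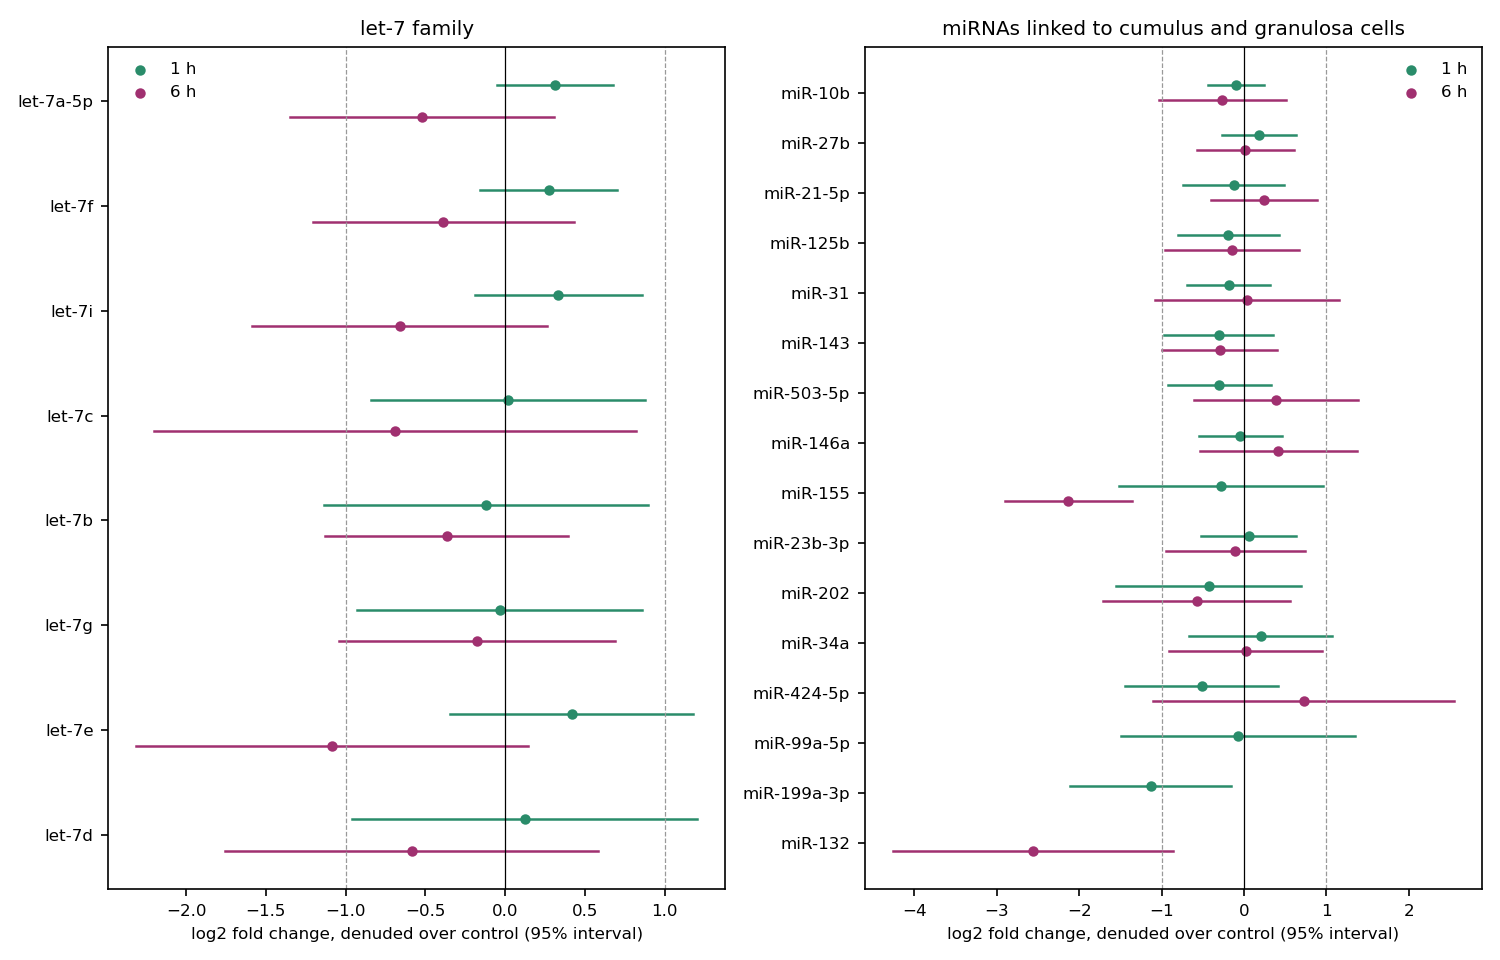
The log2 fold change of DO over control (horizontal axis) at 1 h and 6 h for the 8 tested members of the let-7 family and the 16 tested members of the cumulus and granulosa list. Points are estimates, bars are 95% intervals and dashed lines mark a 2-fold difference. At 6 h the 8 let-7 estimates all lie below 0, between -1.08 and -0.18, and the intervals of miR-155 and miR-132 do not reach 0.

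A list of 28 miRNAs linked to cumulus and granulosa cells was followed because stripping removes these cells. Of them 15 were tested at 1 h and 14 at 6 h, and edgeR called 0 at each time (1 with an unadjusted p under 0.05 at 1 h, miR-199a-3p, and 2 at 6 h, miR-155 and miR-132, all lower in DO). The median log2 fold change was -0.185 at 1 h, with 3 of 15 above 0, and -0.044 at 6 h, with 7 of 14 above 0, beside 0.029 and 0.023 over all miRNAs tested. The summed level of the list overlapped between the groups at both times, at 69837 to 79077 CPM in control and 62394 to 72822 CPM in DO at 1 h, and at 69191 to 104658 CPM in control and 65018 to 71505 CPM in DO at 6 h. Most of this sum was 1 member, miR-10b from the HOXD locus, so the overlap describes mainly that miRNA. It had 4942 of the list's 7232 counts in control replicate 1 at 1 h and 8478 of 12544 in DO replicate 1 at 6 h. The log2 fold change of miR-10b was -0.10 ± 0.13 at 1 h and -0.26 ± 0.31 at 6 h. miR-21-5p (sequence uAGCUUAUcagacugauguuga, shown because it is the best known survival-linked miRNA of cumulus cells) was 5959.8, 3344 and 3847 CPM in control and 4113, 4348 and 3257 CPM in DO at 1 h. At 6 h it was 3769, 3419 and 3434 CPM in control and 4836, 4963 and 3204 CPM in DO. The groups overlapped at both times, and the 95% interval of the log2 fold change was -0.74 to 0.49 at 1 h and -0.40 to 0.89 at 6 h.

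Others of that list behaved likewise. miR-125b (-0.19 ± 0.24 and -0.15 ± 0.33 at 1 h and 6 h), miR-27b (0.18 ± 0.18 and 0.01 ± 0.24) and miR-31 (-0.19 ± 0.20 and 0.04 ± 0.45) lay close to 0 beside their errors. miR-202, a miRNA of the gonads, was at -0.43 ± 0.44 and -0.57 ± 0.46. miR-503-5p and miR-424-5p, neighbours on the X chromosome, were at -0.30 ± 0.25 and -0.51 ± 0.37 at 1 h and at 0.39 ± 0.41 and 0.72 ± 0.74 at 6 h. Of 1159 miRNAs detected in control at 1 h, 5 had a count in all 3 controls and in no DO library, with at most 7 counts in a library. They included other arms and neighbours from that locus, miR-450b, miR-503-3p and miR-542-5p. DO replicate 2 at 1 h held 32676 counts in total and the 1 h controls 59384 to 91455, and the part of depth was not tested. In the other direction, 1 of 1145 miRNAs detected in DO at 1 h had a count in all 3 DO libraries and in no control. At 6 h, where the DO libraries were deeper, these numbers were 0 of 1104 for control alone and 11 of 1186 for DO alone, with at most 8 counts. At that time miR-542-5p had 0 counts in control and 2 counts in DO replicate 3.

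The other families had 0 calls in edgeR at either time. In the miR-17-92 cluster and its paralogs, which promote cell cycling, 1 of 9 tested members was above 0 at 1 h (median -0.441) and 6 of 8 at 6 h (median 0.089). The summed level of all 14 members did not change side between the times. Its mean log2 ratio was -0.144 at 1 h (lower in 3 of 3 pairs) and -0.140 at 6 h (lower in 2 of 3). Over both times 0 of the 9 tested members were above 0 (median -0.168, beside 0.019 over all miRNAs tested). Examples less abundant than miR-92a and miR-93 were miR-19a and miR-20a. miR-19a, with 1 to 43 counts, was at -0.68 ± 0.28 and 0.34 ± 0.53, and miR-20a at -0.44 ± 0.20 and 0.12 ± 0.38. The miR-30 family had medians of 0.014 and 0.009 (5 tested), with 1 unadjusted p under 0.05, that of miR-30b-5p at 1 h. The epithelial miR-200 list had medians of 0.133 and 0.265 (4 tested). The miR-15/16 family, which restrains BCL2 and cell cycle genes, had medians of -0.062 (6 tested) and 0.106 (5 tested). The medians were -0.207 and 0.097 for miR-23/24/27 (5 and 4 tested), 0.070 and 0.448 for miR-26 and miR-29 (4 and 2 tested), and -0.138 and -0.184 for miR-148 and miR-152 (3 tested). Of the 148 ruminant miR-2284 and miR-2285 members 2 were tested, at medians of -0.314 and -0.034. No member of the muscle, miR-302 and miR-371 or DLK1-DIO3 lists was tested, and of the blood list only miR-150 was (-0.26 ± 0.35 and 0.32 ± 0.48).

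Of 18 miRNAs that the study names, 16 were tested, and edgeR called 0. Since they were named from these and the other libraries of the series, their direction is no independent evidence. The medians were -0.056 at 1 h and -0.059 at 6 h with 8 of 16 above 0 at each time, and the members with an unadjusted p under 0.05 were lower in DO (3 at 1 h, predicted miR-485, miR-824 and miR-895, and 2 at 6 h, predicted miR-485 and miR-895). Predicted miR-79 (uGCAAGAUuuuaagcaugaccuu, shown as the member with the largest difference at 6 h) was 494, 1118 and 16.2 CPM in control and 1379, 1478 and 1222 CPM in DO at that time. All DO libraries lay above all controls, and the log2 fold change was 1.94 ± 0.95 (edgeR, unadjusted p = 0.0865, adjusted p = 0.821). Control replicate 3 had 1 count there, and over 16 other settings the value ran from 0.85 to 3.27. Predicted miR-559 varied widely among replicates at 6 h, from 61.8 to 8357 CPM within the controls.

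miR-206 and miR-223, from other tissues, were singled out after their values had been seen. miR-206, a miRNA of skeletal muscle, had 296 counts in control replicate 2 at 1 h and 610 in control replicate 2 at 6 h, and 0 to 11 counts in the other 10 libraries. The other muscle markers had at most 7 counts in any library. miR-223, a miRNA of myeloid blood cells, had 155 counts in DO replicate 2 at 6 h and 0 to 11 elsewhere, and miR-142-5p had 10 counts in that library and 0 to 1 in the others. Predicted miR-485 was high in the same 2 control libraries as miR-206 and also in control replicate 3 at 1 h, where miR-206 had 0 counts, and the part of other tissues in its difference was not tested.

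**Figure D4:**
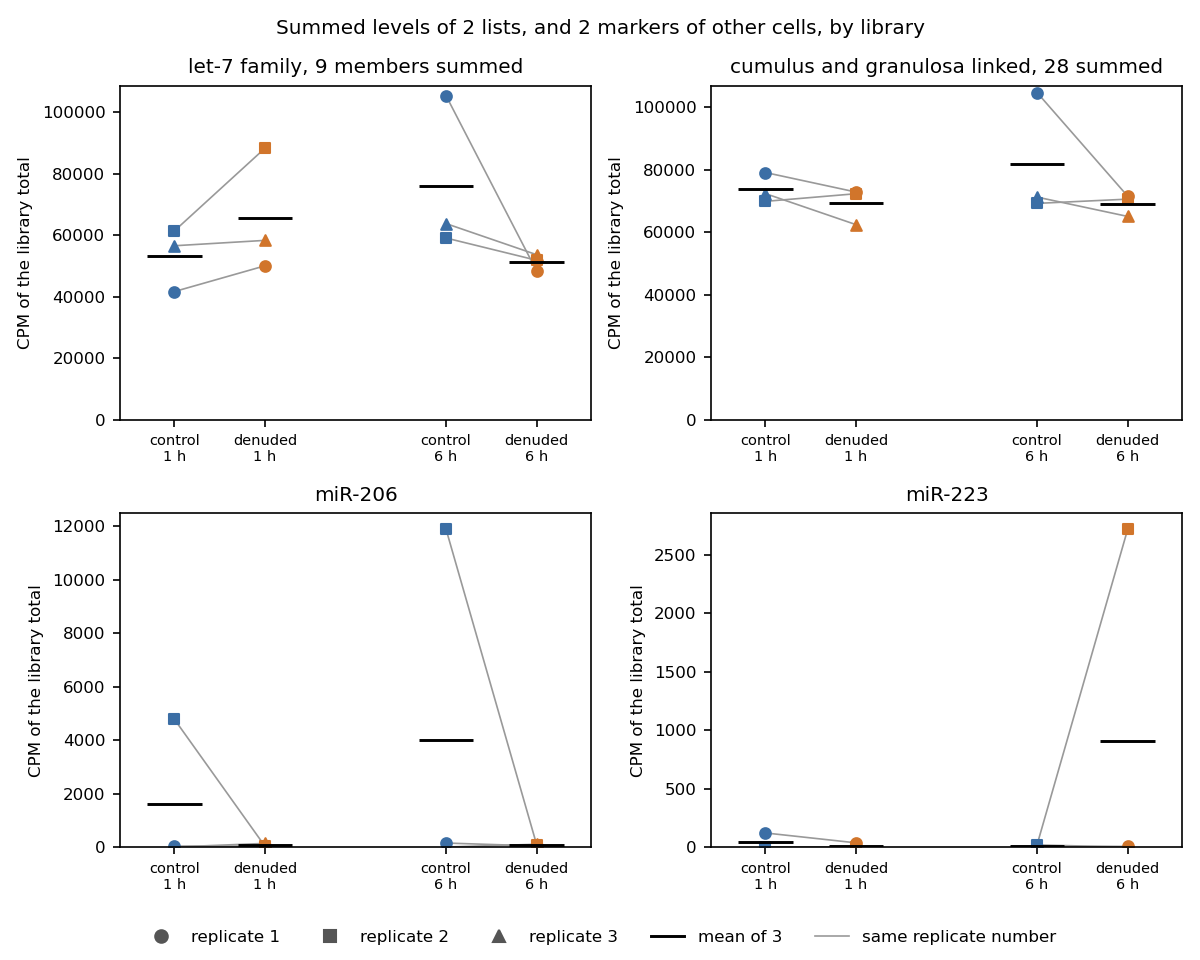
Levels, in CPM of the library total, of the let-7 family (9 members summed), the cumulus and granulosa list (28 summed), miR-206 and miR-223 in each of the 12 libraries, by group and time. The let-7 sum of the control replicate 1 at 6 h (105352 CPM) is the highest of all, miR-206 is high in control replicate 2 at both times, and miR-223 in DO replicate 2 at 6 h. Most of the cumulus and granulosa sum is miR-10b.

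Among the 10 most abundant miRNAs no difference was called. Predicted miR-212, with the highest mean, was 84351, 81377 and 62517 CPM in control and 78653, 94657 and 88543 CPM in DO at 1 h, and 91317, 89666 and 66061 CPM in control and 110256, 100976 and 118176 CPM in DO at 6 h. At 6 h every DO library was above every control, and over both times its log2 fold change was 0.32 ± 0.13 (edgeR, unadjusted p = 0.0415, adjusted p = 0.993). miR-16b had a 95% interval of -0.25 to 0.36 at 1 h and -0.69 to 0.37 at 6 h. Those of predicted miR-787 were -0.67 to 0.25 and -0.38 to 0.60, of predicted miR-777 -0.68 to 0.41 and -0.05 to 0.99, and of predicted miR-322 -0.50 to 0.77 and -0.50 to 0.86. The intervals of miR-148a (-0.92 to 0.83 and -1.12 to 0.75), let-7f (-0.16 to 0.70 and -1.21 to 0.43) and miR-16a (-0.95 to 0.82 and -0.18 to 1.67) lay within a 2-fold difference at 1 h but not at 6 h.

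How large a difference could have gone unseen depended on the time. At 1 h the 95% interval lay within a 2-fold difference for 195 of 439 miRNAs (44.4%), and for 93 of the 110 most abundant. At 6 h this held for 72 of 388 (18.6%) and for 46 of the 97 most abundant. The median distance from the estimate to either bound was 0.81 on the log2 scale at 1 h and 1.01 at 6 h. Over both times 302 of 473 miRNAs (63.8%) had an interval within a 2-fold difference. For the other miRNAs the interval included differences larger than 2-fold.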

How the data were processed

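Small RNA of denuded and cumulus-enclosed oocytes was sequenced with unique molecular identifiers. The authors trimmed and deduplicated the reads (FastQC 0.11.9 and UMI-tools 1.1.2 in the submitters' processing notes), aligned them to ARS-UCD1.2 and counted them on miRBase miRNAs and on miRNAs predicted with miRPro. The deposited values are these counts, whole numbers per mature miRNA without normalization, in separate tables of 1030 known and 965 predicted entries, which were joined. Of the predicted entries, 370 have the same counts as another entry throughout, so that such names cannot be told apart. How reads shared by copies were counted is not given in the sources used here.

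Groups, times and replicate numbers were taken from the labels. Counts were tested with edgeR 4.0.16 (limma 3.58.1, R 4.3.3), using the edgeR 3 behaviour of the quasi-likelihood F-test, filterByExpr (minimum count 10, minimum total 15), TMM factors, a replicate block and Benjamini-Hochberg adjustment over all miRNAs tested. A call needed an adjusted p under 0.05 and a 2-fold difference. The 4 comparisons were DO over control at 1 h and at 6 h, each on its own 6 libraries, and their difference and their mean over 12 libraries. The study's methods enter the ovary pool as batch. The labels give only a replicate number, which was assumed to stand for that pool. CPM given per library are TMM-normalized over the 12 libraries, except sums over lists. The SE is the log2 fold change divided by the square root of F. Single values were compared with exact permutation tests. Both edgeR and DESeq2 1.42.0 were first tested on simulated counts with known answers. The simulated counts held no differences between replicate pairs, so they do not show how the block performs on these libraries.

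Named miRNAs were, in each comparison, those called and the 5 higher and 5 lower with the smallest unadjusted p, those with an unadjusted p under 0.05 at both times, the 10 most abundant and the members of the lists (let-7, cumulus and granulosa linked and study-named in full, others by examples). These members and lists were chosen with earlier results of these data known. Sequences were taken from the study's supplement, letters only. Alternatives were no block, other size factors, DESeq2, other filters, known miRNAs alone, identical counts kept once, deduplicated reads as library size, other edgeR options and leaving out each replicate. The other 27 libraries of the series were not used here.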

Additional observations from a re-analysis of the deposited data

Results flagged for a closer look

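All pairs went one way at 1 h and the other way at 6 h in 13 of 473 miRNAs (2.75%). Of the miRNAs and sums named in the text, 4 did so. let-7a-5p was higher in DO in 3 of 3 pairs at 1 h and lower in 3 of 3 at 6 h, and the effects differed by -0.80 on the log2 scale (edgeR interaction test, unadjusted p = 0.0602, adjusted p = 0.759). The summed let-7 level showed the same directions with a difference of -0.80, which was not tested. Predicted miR-520 was lower at 1 h and higher at 6 h in all pairs, with a difference of 1.59 (edgeR, unadjusted p = 0.0247, adjusted p = 0.759). Predicted miR-785 did the same, with a difference of 1.62 (edgeR, unadjusted p = 0.00811, adjusted p = 0.759).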

How the results depend on the processing

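With no low-count filter edgeR called 7 miRNAs at 1 h (0 higher), 6 at 6 h, 5 in the difference between the times and 9 over both times, DESeq2 called 2 at 6 h and 1 over both times, and known miRNAs alone gave 1 at 6 h, miR-155. Leaving out each replicate gave 0 to 1 calls at 1 h (predicted miR-485 without replicate 1) and 0 to 2 at 6 h (miR-155 and predicted miR-399 without replicate 2, miR-184 and predicted miR-485 without replicate 3), and 0 in the other comparisons. The causes were not tested. The correlation between the times was -0.200 to 0.253 when a replicate was left out, 0.0074 with no replicate block, -0.151 without TMM, -0.161 over known miRNAs alone and -0.121 with identical counts kept once. Of 668 recomputed values of 43 miRNA results, 656 stayed on their side of the threshold, 12 passed it and 0 reversed. Dropping the 2-fold minimum used the main fit again, and the robust option of edgeR moved the median by 0 in each comparison. Both are counted among the other settings given in the text, although they add no check. The 43 results were chosen by their small p in the same data, so few reversals could occur and their absence is no support. Named miRNAs chosen otherwise did change sign, such as let-7c at 1 h in 7 of 16 other settings and let-7a-5p over both times in 4 of 17. Same-numbered libraries correlated in their deviations by 0.212, 0.417 and -0.058 at 1 h and by 0.219, 0.281 and -0.0004 at 6 h, and 4 of 6 libraries correlated best with their own number. Without the replicate block edgeR called 0 in all 4 comparisons (5, 15, 16 and 19 with an unadjusted p under 0.05). Without the block and without control replicate 1 at 6 h, chosen after seeing the data, it called 0 at 6 h, 0 over both times and 0 in the difference. Deduplicated reads as library size moved the median of all miRNAs by 0.310 at 6 h, and the let-7 median there was then -0.250 with 1 of 8 above 0, against 0.261 for the cumulus and granulosa list. The depth of 20180 counts in the smallest library limits what can be said of miRNAs below its floor of 148.7 CPM.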
